A study of Mus musculus with 14 samples.

Results

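The genes described here encode the proteins of the cytoplasmic ribosome, together with Rpl39l and the other paralogues whose symbols follow the same pattern. A gene was taken when a probe set naming it alone was present and its symbol began with Rpl or Rps and a digit, or was Rplp0, Rplp1, Rplp2 or Rpsa. The Rps6k kinases and Rps19bp were left out, and a gene with several such probe sets was read at the one of highest mean. This gave 48 of the 10254 genes measured, 26 of the large subunit and 22 of the small. A further 28 ribosomal protein genes, among them Rpl3, Rpl5, Rpl23, Rpl10 and Rplp1, were named only by probe sets shared with other genes and were not analysed here.

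Expression was measured in 14 thymic lymphomas, 1 array per tumour, and the question was how they differ with the genotype of Hif1a, the gene for the HIF-1 subunit that is stabilised when oxygen is low. All mice were p53R270H/R270H, homozygous for the R270H mutation, on a mixed C57BL/6-129/SvEvTac background. They carried either no Hif1a alteration (Hif1a+/+, 5 tumours), 1 Hif1a allele (Hif1a+/-, 5 tumours) or a knock-in allele beside a normal one (Hif1aKI/+, 4 tumours, numbered 1, 3, 4 and 5). What was knocked in is not stated in the labels, which also give no age, sex or batch. The tissue was taken when the mice showed respiratory distress, so no tumour represents an early stage, and no sample without the p53 mutation was analysed here.

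The ribosome is built from ribosomal RNA and a set of small basic proteins, most of them encoded by a single expressed gene and made in nearly equal amounts. The mRNAs of these proteins are abundant and share a pyrimidine tract at their start that ties their translation to growth signals. A few ribosomal proteins have a paralogue with restricted use: Rpl39l, the paralogue of Rpl39, is known from testis, and Rpl3l, the paralogue of Rpl3, from skeletal and heart muscle. Outside the ribosome, Rpl5, Rpl11 and Rpl23 can bind Mdm2, the ubiquitin ligase that degrades p53, and Rpl22 is needed for the development of one lineage of T cells and is lost in some T cell lymphomas.

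The upstream windows of Rpl39l and Rpl19, the genes whose groups separated most clearly, and of Rpl39, the paralogue of the first, are shown to compare the motifs near their starts. Each is the RefSeq window from 250 bases before to 50 bases after the annotated start, in GRCm38.p6, on the strand of the gene. Capitals mark TTCCGG or its reverse complement CCGGAA, the core bound by ETS-family factors.
Rpl39l: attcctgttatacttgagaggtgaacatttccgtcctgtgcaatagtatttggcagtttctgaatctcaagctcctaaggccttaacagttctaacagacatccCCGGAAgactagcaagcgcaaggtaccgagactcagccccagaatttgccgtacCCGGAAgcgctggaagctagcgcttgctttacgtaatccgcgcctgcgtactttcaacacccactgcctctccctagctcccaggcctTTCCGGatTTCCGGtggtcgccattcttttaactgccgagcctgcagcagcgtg
Rpl39: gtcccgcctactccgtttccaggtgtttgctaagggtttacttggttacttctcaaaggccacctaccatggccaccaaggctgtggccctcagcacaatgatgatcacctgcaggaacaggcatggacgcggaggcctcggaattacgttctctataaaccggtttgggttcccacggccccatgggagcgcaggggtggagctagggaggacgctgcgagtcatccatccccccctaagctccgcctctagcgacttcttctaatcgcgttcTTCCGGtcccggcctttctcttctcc
Rpl19: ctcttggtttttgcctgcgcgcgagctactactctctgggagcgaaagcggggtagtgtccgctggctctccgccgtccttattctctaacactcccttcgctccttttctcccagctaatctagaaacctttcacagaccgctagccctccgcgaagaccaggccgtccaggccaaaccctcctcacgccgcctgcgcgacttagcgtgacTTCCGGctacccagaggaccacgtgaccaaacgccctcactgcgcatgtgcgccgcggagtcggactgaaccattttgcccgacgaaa

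The Rpl39l window lies at chr16:10169978-10170277 on the plus strand and holds 4 copies of that core, beginning at -146, -92, -4 and 5 when the first transcribed base is counted as 1 and there is no base 0. The Rpl39 window, at chrX:37085173-37085472 on the minus strand, holds 1 copy, beginning at 25. The Rpl19 window, at chr11:98026460-98026759 on the plus strand, holds 1 copy, beginning at -38. Of the 48 genes, 42 were matched to such a window of 300 bases, and 6, Rps14 among them, had no window used. Windows of 1 chromosome were left out, both for these genes and for all genes. The core was present on either strand in 26 of these 42 windows, 61.9%, against 26.9% of the windows of 8248 measured genes. The E-box CACGTG, bound by Myc and Max, was present in 3 of 42 windows (7.1%), against 9.9% of all. The shorter ACGTG (or CACGT), the core of the hypoxia response element that HIF-1 binds and a part of CACGTG, was present in 10 of 42 windows (23.8%), against 25.1% of all, and was in neither the Rpl39l nor the Rpl39 window. The Rpl19 window held CACGTG 1 time and ACGTG 2 times, counting both strands of that one site. These matches describe the letters of the windows and are not evidence of binding.

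The values are log2 probe set levels made by the authors with GCRMA. Over all genes they fall into a low mode with no signal above background and a broad upper range, separated at 4.41, and 28.5% of the genes averaged below that boundary. Array medians ran from 7.91 to 8.03, no array had a maximum below 15.42, and correlations between arrays from 0.941 to 0.974. Hif1a itself lay between 12.44 and 13.04 in Hif1a+/+, 12.24 and 12.82 in Hif1a+/- and 11.75 and 12.25 in Hif1aKI/+ tumours. Its probe set therefore did not separate the heterozygous from the Hif1a+/+ tumours, and whether its probes lie in the altered part of the gene is not known here. Of 13 T lymphocyte markers, 12 were measured, and their mean level lay between 11.50 and 12.37 in every tumour. Because tissue was measured in bulk, a smaller number of cells of a type and less RNA per cell cannot be told apart. With so few arrays the precision of each difference below is limited.

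Rpl39l was detected in tumours of normal Hif1a genotype and was at background in the tumours with an altered Hif1a allele. In the Hif1a+/+ tumours 1 to 5 the log2 level was 7.90, 2.82, 12.90, 13.12 and 5.99. In the Hif1a+/- tumours 1 to 5 it was 2.12, 2.32, 2.13, 2.13 and 2.12. In the Hif1aKI/+ tumours 1, 3, 4 and 5 it was 2.10, 2.13, 2.13 and 2.13. Thus 4 of the 5 Hif1a+/+ tumours lay above the low mode, while all 9 tumours with an altered allele lay below it. The Hif1a+/+ group did not overlap either of the other groups. That group was itself spread over 10.3 log2 units, from 2.82, below the low-mode boundary, in tumour 2 to 13.12 in tumour 4.

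The mean was 8.55 ± 4.46 (SD, n = 5) in Hif1a+/+, 2.17 ± 0.09 (SD, n = 5) in Hif1a+/- tumours and 2.12 ± 0.02 (SD, n = 4) in Hif1aKI/+ tumours. Hif1a+/- tumours were lower than Hif1a+/+ tumours by a log2 difference of -6.38 (95% interval -9.98 to -2.79), with a two-sided exact permutation p of 0.00794, the smallest possible, and 0.0238 after Benjamini-Hochberg adjustment over 3 comparisons. The interval comes from limma, which takes the same spread for all 3 genotypes. The SDs above are far from equal, so its width is not reliable. Hif1aKI/+ tumours were lower by -6.42, with an exact permutation p of 0.0159 (smallest possible 0.00794) and 0.0238 adjusted. The 2 altered genotypes differed by 0.04, with an exact permutation p of 0.532. In the limma fit across all 10254 genes neither difference from Hif1a+/+ passed, with an adjusted p of 0.442 for Hif1a+/- and 0.984 for Hif1aKI/+. Since Rpl39l was singled out with earlier results of these data known, the exact p-values are not those of a gene chosen beforehand. Both differences are measured against background, so their size is uncertain, and no fold is given. Without any 1 of the 4 Hif1aKI/+ tumours the exact permutation p of that comparison was 0.0536, at differences of -6.43 to -6.42.

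Rpl39l was named by 1 probe set of the annotation, so its pattern has no second reading here. Its paralogue Rpl39 was at background in all tumours at its only single-gene probe set, from 2.13 to 2.22, and the pair could not be compared. Rpl39 encodes a constitutive ribosomal protein, and whether that probe set reads its mRNA was not tested. On chromosome 16 the nearest measured gene on one side of Rpl39l in the RefSeq order was Usp7, which encodes a deubiquitinase acting on Mdm2 and p53. It was expressed in every tumour, with means of 13.25 ± 0.37 (SD, n = 5), 12.94 ± 0.37 (SD, n = 5) and 13.47 ± 0.09 (SD, n = 4) in Hif1a+/+, Hif1a+/- and Hif1aKI/+ tumours. Emp2, a membrane protein gene and the nearest measured on the other side, averaged 3.73, 4.66 and 4.73 in the same order. For neither neighbour did the Hif1a+/+ tumours lie apart from the other groups. Within Hif1a+/+ tumours 1 to 5 Usp7 was 13.45, 12.64, 13.30, 13.59 and 13.24, lowest in tumour 2 and highest in tumour 4, as was Rpl39l. Emp2 was 5.44, 4.67, 3.15, 1.94 and 3.47 in the same tumours, lowest in tumour 4. A relation of either neighbour to Rpl39l was not tested.

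Markers of other cells also varied among the Hif1a+/+ tumours, not all of them in step with Rpl39l. Of 10 thymic epithelial markers 8 were measured, and their mean level in the Hif1a+/+ tumours 1 to 5 was 8.25, 6.89, 3.70, 4.14 and 5.24. The number of them above the low mode was 8, 7, 2, 3 and 5, and the keratin gene Krt8 stood at 10.68, 9.94, 3.09, 2.04 and 6.62. The tumours with the most Rpl39l, 3 and 4, thus had the fewest epithelial markers. The summed level of the 8 markers ran from 29.6 to 66.0 in Hif1a+/+, 48.2 to 68.5 in Hif1a+/- and 59.4 to 70.2 in Hif1aKI/+ tumours. For the 10 macrophage markers, all measured, it ran from 96.3 to 111 in Hif1a+/+, 86.5 to 96.3 in Hif1a+/- and 88.5 to 103 in Hif1aKI/+. For the 9 fibroblast markers, all measured, it ran from 80.1 to 90.1, 65.8 to 77.3 and 71.8 to 80.4 in the same order. The mean of the 5 adipocyte markers measured of 8 listed was 5.16, 7.68, 9.34, 4.64 and 8.30 in the Hif1a+/+ tumours 1 to 5. It was at most 5.74 in Hif1a+/- and 6.26 in Hif1aKI/+ tumours, and the summed level ran from 23.2 to 46.7, 23.0 to 28.7 and 23.9 to 31.3 in Hif1a+/+, Hif1a+/- and Hif1aKI/+. Il2ra, the interleukin 2 receptor chain of immature T cells, stood at 6.90, 8.26, 11.42, 9.93 and 2.14 in the Hif1a+/+ tumours, from 2.12 to 6.29 in Hif1a+/- and from 2.13 to 3.22 in Hif1aKI/+ tumours. The part of these cells in the level of Rpl39l was not tested. Germ cell markers were at background: Ddx4, Dazl and Sycp3, the 3 measured of 6 listed, lay between 2.02 and 2.74 in all tumours.

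Of 7330 other genes above the low mode, those whose level over the 14 tumours was most like that of Rpl39l were Srcap, a chromatin remodelling ATPase (Pearson r = 0.857, Spearman rho = 0.442), and Mfn1, which fuses mitochondria (0.849 and 0.528). Frmd4b, a scaffold protein gene, followed (0.845 and 0.829), then Rcc1l (0.831 and 0.561) and Brat1 (0.813 and 0.515). These are descriptions over 14 tumours, with no test, and the rank measure was lower than Pearson's r for each. Rpl39l was at background in all 9 tumours with an altered allele. Both measures therefore mix the contrast of genotypes with the variation within Hif1a+/+, and rho also ranks background values. Within Hif1a+/+ tumours alone Pearson's r was 0.840, 0.950, 0.951, 0.829 and 0.928 for the genes in the order named. For Frmd4b both measures were alike, and its level was 9.56, 9.17, 10.66, 10.30 and 9.63 in the Hif1a+/+ tumours 1 to 5. All lay above the highest level in Hif1a+/- (8.71) and Hif1aKI/+ (8.83) tumours. Such a separation was found for 0.741% of all genes with Hif1a+/- and 0.878% with Hif1aKI/+ tumours. Because Frmd4b was picked for its likeness to Rpl39l, its separation is no independent result.

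**Figure D1:**
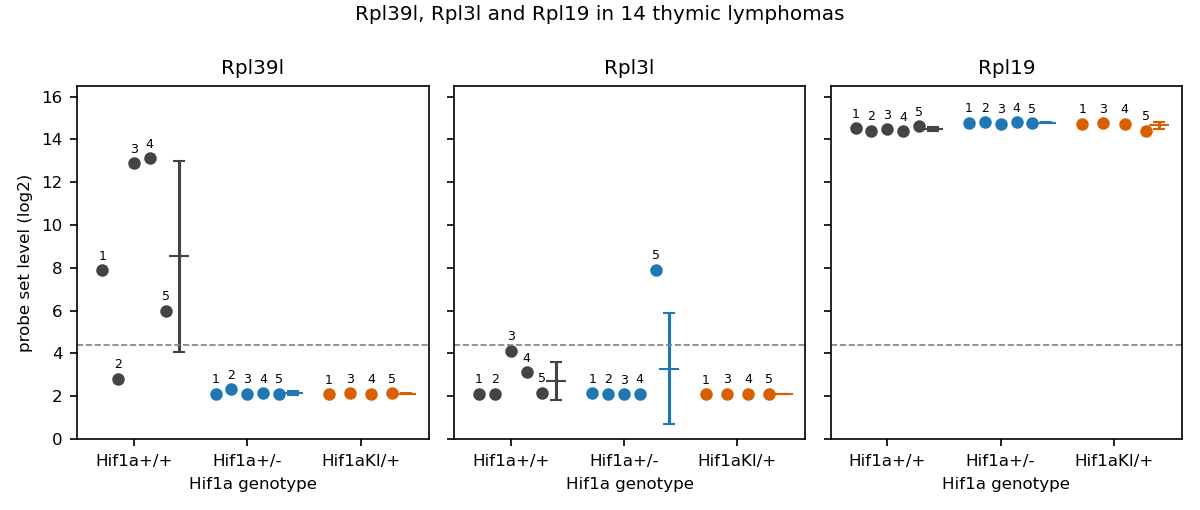
Log2 level of Rpl39l, Rpl3l and Rpl19 in each of the 14 tumours (points, numbered as in the labels) by Hif1a genotype; bars are the group mean ± SD and the dashed line is the low-mode boundary of 4.41. Rpl39l is above the line in 4 of 5 Hif1a+/+ tumours and in none of the 9 others, Rpl3l only in Hif1a+/- tumour 5, and Rpl19 lies far above it in all 14.

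Rpl3l, the muscle paralogue, was above the low mode in a single tumour. It reached 7.92 in Hif1a+/- tumour 5, and lay at 4.13 and 3.14 in Hif1a+/+ tumours 3 and 4. In the other 11 tumours it was between 2.10 and 2.18. The groups overlapped, and the difference of Hif1a+/- from Hif1a+/+ was 0.55 (SE 1.01; limma adjusted p = 0.943). The skeletal muscle markers Tnnt3, Mb, Myl1, Tnni2 and Pvalb, 5 measured of 8 listed, stayed between 1.98 and 2.43 in all tumours.

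The other paralogues were expressed throughout. Rpl22l1, the paralogue of Rpl22, averaged 12.94 ± 0.45 (SD, n = 5) in Hif1a+/+, 12.86 ± 0.48 (SD, n = 5) in Hif1a+/- tumours and 12.96 ± 0.71 (SD, n = 4) in Hif1aKI/+ tumours, and the groups overlapped. Rps27l, a p53-induced paralogue of Rps27, averaged 13.84 ± 0.21 (SD, n = 5), 13.79 ± 0.33 (SD, n = 5) and 13.74 ± 0.19 (SD, n = 4) in the same order. Rpl7l1, the paralogue of Rpl7, averaged 11.10 ± 0.41 (SD, n = 5), 11.22 ± 0.38 (SD, n = 5) and 11.20 ± 0.07 (SD, n = 4). No difference between genotypes beyond the spread of the tumours was detected for these, at limma adjusted p of 0.941 or above.

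Paralogue levels were compared across the 14 tumours in the 2 pairs in which both genes were expressed. For Rpl22 and Rpl22l1, Pearson's r was -0.122 (permutation p = 0.678, adjusted 0.678) and Spearman's rho was -0.002 (permutation p = 1, adjusted 1). Without the 2 tumours farthest from the median of Rpl22, r was 0.365. For Rpl7 and Rpl7l1, r was 0.387 (permutation p = 0.172, adjusted 0.344) and rho was 0.253 (permutation p = 0.385, adjusted 0.770). Without the 2 farthest tumours r was 0.256, and with the genotype means removed the values were -0.100 and 0.374. No relation was therefore detected within either pair. The pairs of Rpl3, Rpl10, Rpl36a and Rps4x lacked a single-gene probe set for at least 1 gene.

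The remaining genes form the canonical core of the ribosome. Of the 48 genes, 43 averaged above the low mode and 36 above a log2 level of 13. The 5 below it were Rpl37, Rpl39, Rps27, Rpl3l and the pseudogene Rps15a-ps6. Rpl37 (2.13 to 2.19), Rps27 (2.63 to 2.68) and Rpl39 (2.13 to 2.22) were at background in every tumour at their only single-gene probe set. Yet each of them encodes a constitutive ribosomal protein. Rps15a-ps6 ran from 2.48 to 6.46 and was above the boundary in tumours of all 3 genotypes. The 36 strongly detected genes averaged between 13.79 and 15.29, the upper end near the array maxima.

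Ribosomal protein genes varied little between tumours. The SD over the 14 tumours had a median of 0.0853 for the 36 genes averaging above 13 (range 0.0348 to 0.238), against 0.190 for the 530 other genes above 13. Above 14 the medians were 0.0780 for 34 ribosomal protein genes and 0.124 for 97 others. The smallest SDs among the detected genes were those of Rpl35 (0.0348), Rpl4 (0.0419), Rpl13a (0.0492), Rps28 (0.0509), Rps20 (0.0510) and Rpl7a (0.0529). Rpl35, a protein near the exit of the peptide tunnel, ran from 15.23 to 15.34 over all tumours. Whether closeness to the top of the scale narrows these spreads was not tested.

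Among the 43 genes averaging above the low mode, the largest SDs after Rpl39l (4.03) were those of Rpl14 (0.818), Rps25 (0.715), Rpl12 (0.618), Rps6 (0.560) and Rpl22l1 (0.501). Rpl14 had its lowest level, 8.28, in Hif1a+/- tumour 5 and ran from 9.64 to 11.48 in the other 13. Rps25, which some viral internal ribosome entry sites need, ran from 8.58 to 11.41 within Hif1a+/+ and from 10.39 to 11.10 in Hif1aKI/+ tumours. Rps6, whose protein is the classical substrate of the S6 kinases, averaged 11.82 ± 0.63 (SD, n = 5) in Hif1a+/+, 12.20 ± 0.58 (SD, n = 5) in Hif1a+/- tumours and 12.33 ± 0.40 (SD, n = 4) in Hif1aKI/+. The log2 differences of Rps6 from Hif1a+/+ were 0.38 (SE 0.34) and 0.51 (SE 0.36), with limma adjusted p of 0.794 and 0.984.

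**Figure D2:**
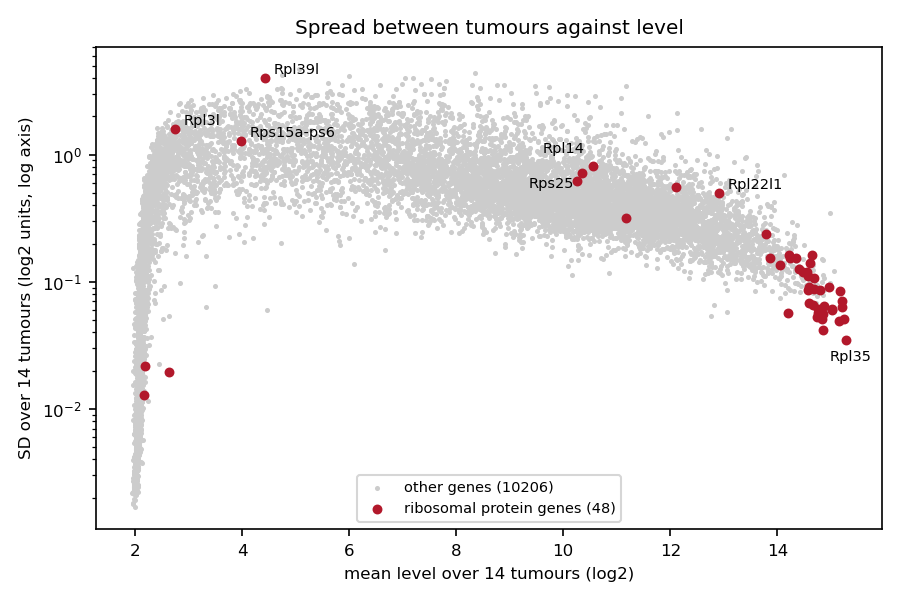
SD over the 14 tumours (log2 units, log axis) against the mean log2 level for each of the 10254 genes, with the 48 ribosomal protein genes in red. Most of the red points lie at the right-hand edge with SDs below 0.238, while Rpl39l has an SD of 4.03.

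In Hif1a+/- against Hif1a+/+ tumours a few ribosomal protein genes were slightly higher, and none passed the limma test adjusted over all genes, which 2 genes (0.0195%) did. At an unadjusted p of 0.05 in limma, 5 of the 48 genes were higher (10.4%), beside 4.3% of all genes. Those 5 were Rpl19, Rps14, Rpl11, Rps10 and Rpl22, and their differences were between 0.13 and 0.29. The 1 gene that was lower was Rpl39l (2.08% of the 48, beside 3.64% of all genes), and it was also the 1 whose groups did not overlap in that direction, beside 0.741% of all genes. In either direction the count was 6 (12.5%, beside 7.94%), and it was 9 without Hif1a+/- tumour 5. With the arrays centred on their medians 2 genes were higher, Rpl19 and Rps14, and Rpl11 (difference 0.13), Rpl22 (0.13) and Rps10 (0.08) were no longer called. With genes below the low mode left out of the fit the same 2 were called higher, and those 3 were not. The share of all genes was not taken in any of these refits, so their counts have no background beside them.

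Rpl19, a large subunit protein at the bridge between the subunits, separated the groups. Its level was 14.51, 14.42, 14.48, 14.38 and 14.62 in the Hif1a+/+ tumours 1 to 5. It was 14.79, 14.80, 14.75, 14.80 and 14.76 in the Hif1a+/- tumours 1 to 5, so that these groups did not overlap, which was the case for 0.731% of all genes in this direction. In Hif1aKI/+ it was 14.74, 14.77, 14.75 and 14.42, with 3 tumours near the Hif1a+/- level and tumour 5 within the Hif1a+/+ range. The difference of Hif1a+/- from Hif1a+/+ was 0.29 (SE 0.07, limma unadjusted p = 0.00104, adjusted p = 0.408), a 1.23-fold higher level. It held at an unadjusted p under 0.05 in each of the 14 fits that left out a tumour, between 0.27 and 0.33.

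Rps14, a small subunit protein whose loss of 1 copy causes the anaemia of the human 5q- syndrome, had its highest mean in Hif1a+/- tumours. Its level was 14.36, 14.15, 14.11, 14.21 and 14.40 in Hif1a+/+ and 14.50, 14.49, 14.62, 14.49 and 14.38 in Hif1a+/- tumours. In Hif1aKI/+ tumours it was 14.35, 14.33, 14.27 and 14.13, below every Hif1a+/- tumour. The difference of Hif1a+/- was 0.25 (SE 0.07, limma adjusted p = 0.474) from Hif1a+/+ and 0.23 (SE 0.07, limma unadjusted p = 0.00985, not past the threshold after adjustment) from Hif1aKI/+. A second probe set of Rps14 gave 0.05 and 0.07 for these differences. Both carry the suffix that marks probes able to bind other transcripts, as do the probe sets used for 13 of the 48 genes.

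Rpl11, one of the Mdm2-binding proteins and the only one of them measured alone, averaged 14.47 ± 0.14 (SD, n = 5) in Hif1a+/+, 14.64 ± 0.06 (SD, n = 5) in Hif1a+/- tumours and 14.56 ± 0.06 (SD, n = 4) in Hif1aKI/+ tumours. In Hif1a+/+ tumours 1 to 5 it was 14.42, 14.58, 14.24, 14.52 and 14.57, and in Hif1a+/- tumours 14.73, 14.63, 14.64, 14.64 and 14.58. Only the lowest Hif1a+/- tumour overlapped the Hif1a+/+ range, and the difference was 0.18 (SE 0.06, limma adjusted p = 0.540).

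Rpl22 averaged 13.96 ± 0.11 (SD, n = 5), 14.14 ± 0.13 (SD, n = 5) and 14.05 ± 0.13 (SD, n = 4) in Hif1a+/+, Hif1a+/- and Hif1aKI/+ tumours, and no tumour had lost its signal (lowest 13.78). The difference of Hif1a+/- from Hif1a+/+ was 0.17 (SE 0.08, limma adjusted p = 0.618) and missed an unadjusted p of 0.05 in 8 of the 14 fits that left out a tumour. Its second probe set, which averaged 9.82 against 14.05 at the first, gave 0.37. For Hif1aKI/+ against Hif1a+/+ it gave 0.71, against 0.09 at the first, and there an unadjusted limma p under 0.05 was reached at the second probe set and with the mean of both (0.40). Rps10 was higher by 0.13 (SE 0.06, limma adjusted p = 0.604) in Hif1a+/- tumours, a call kept in 7 of those 14 fits, and its other 5 probe sets gave differences between 0.05 and 0.77. The 0.77 came from a probe set averaging 5.12, near the low mode, and the next largest was 0.20.

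**Figure D3:**
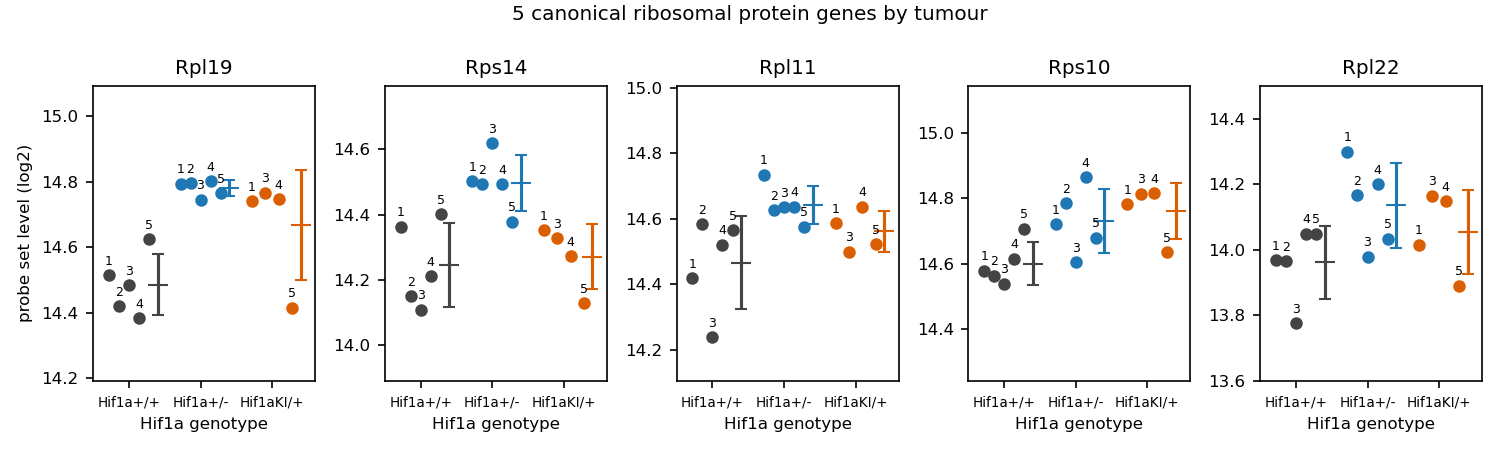
Log2 level of Rpl19, Rps14, Rpl11, Rps10 and Rpl22 in each tumour (points, numbered as in the labels) by Hif1a genotype, with the group mean ± SD; each panel spans 0.9 log2 units around its gene's mean. Rpl19 separates the Hif1a+/- from the Hif1a+/+ tumours and Rps14 the Hif1a+/- from the Hif1aKI/+ tumours, and the groups overlap in the other panels.

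In Hif1aKI/+ against Hif1a+/+ tumours no gene passed the adjusted limma test (0%), and 446 genes had an unadjusted p under 0.05. At that level 3 of the 48 genes were called (6.25%, beside 4.35% of all genes), 2 of them higher (4.17%, beside 2.72%). Rps10 was higher by 0.16 (SE 0.06) and Rpl19 by 0.18 (SE 0.07), both with a limma adjusted p of 0.984, and Rpl39l was lower (2.08%, beside 1.63%). With the arrays centred, or with genes below the low mode left out, Rpl39l was the 1 gene still called. It passed that filter on level only through its Hif1a+/+ tumours, so the filter says nothing on its call. Without Hif1aKI/+ tumour 4 the count was 1. The share of all genes was not taken in these refits either. Rpl39l was the 1 gene of the 48 whose groups did not overlap in the lower direction, beside 0.878% of all genes, and none did so in the higher direction, beside 0.878%. This comparison and the previous one share the Hif1a+/+ tumours.

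In Hif1a+/- against Hif1aKI/+ tumours, which share no sample, Rps14 was the only 1 of the 48 genes with an unadjusted p under 0.05 in limma (2.08%, beside 3.06% of all genes in either direction). It was higher in Hif1a+/-, as were 1.41% of all genes, and 0 of the 48 were lower, beside 1.65%. It was also the 1 gene whose groups did not overlap, beside 0.234% of all genes in that direction and 0.439% in the other. No gene passed the adjusted test (0%), and 314 genes had an unadjusted p under 0.05. In the limma F test over the 3 genotypes, 4 of the 48 genes, Rpl19, Rpl39l, Rps10 and Rps14, had an unadjusted p under 0.05 (8.33%, beside 5.43% of all genes), and no gene passed after adjustment.

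As a group the ribosomal protein genes shifted little. Of the 48, 32 had a higher mean in Hif1a+/- than in Hif1a+/+ tumours (66.7%, beside 46.2% of all genes), but 20 did so with the arrays centred on their medians (41.7%, beside 40.2%). For Hif1aKI/+ against Hif1a+/+ the count was 35 (72.9%, beside 47.7%), and 20 with the arrays centred (41.7%, beside 42.3%). The median differences were 0.02 in both, against -0.004 and -0.002 over all genes, and turned to -0.03 and -0.01 with the arrays centred. Between Hif1a+/- and Hif1aKI/+ tumours 22 were higher in Hif1a+/- (45.8%, beside 46.9%), with a median of -0.002. With the arrays centred this count was 18 (37.5%, beside 40%), and with quantile normalisation it was 30 (62.5%, beside 50.2%; median 0.01). Quantile normalisation gave 34 of 48 in both comparisons with Hif1a+/+ (70.8%, beside 46% for Hif1a+/- and 47.1% for Hif1aKI/+). The direction of the group thus depended on the scaling. Centring left the members' medians above those of all genes, -0.05 and -0.04, in the comparisons with Hif1a+/+.

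**Figure D4:**
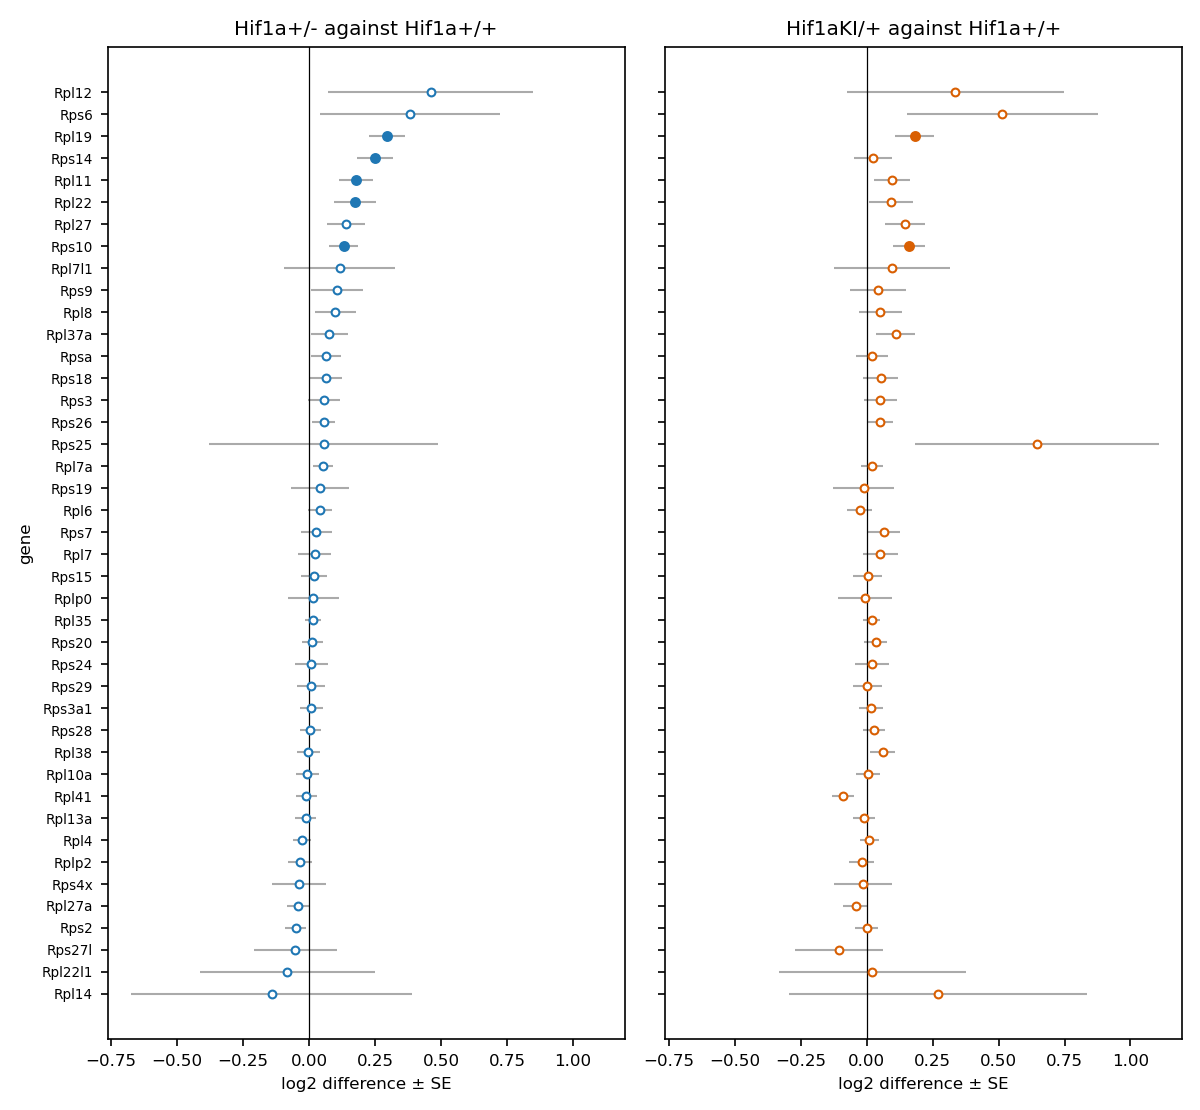
Log2 difference ± SE (limma) from Hif1a+/+ tumours for each ribosomal protein gene above the low mode other than Rpl39l, in Hif1a+/- (left) and Hif1aKI/+ (right) tumours; filled points have an unadjusted p under 0.05. Filled points are few, between 0.13 and 0.29, and the genes with the longest bars, Rpl14, Rps25, Rpl12 and Rps6, are not filled.

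For Rplp0, Rplp2, Rpsa and Rps19 no difference beyond the tumours' spread was detected. Rplp0, the base of the stalk that recruits elongation factors, averaged 14.61 ± 0.05 (SD, n = 5) in Hif1a+/+, 14.63 ± 0.22 (SD, n = 5) in Hif1a+/- tumours and 14.60 ± 0.13 (SD, n = 4) in Hif1aKI/+ tumours. Rplp2 averaged 15.05, 15.01 and 15.03, and Rpsa, which also serves as a laminin receptor, 15.14, 15.20 and 15.16 in the same order. Rps19, the gene most often mutated in Diamond-Blackfan anaemia, averaged 14.20 ± 0.14 (SD, n = 5), 14.25 ± 0.19 (SD, n = 5) and 14.19 ± 0.20 (SD, n = 4). The limma adjusted p of these 4 genes was 0.794 or above for each comparison with Hif1a+/+.

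The lowest levels gathered in a few tumours. Of the 43 genes above the low mode, 13 (30.2%) had their lowest level in Hif1a+/- tumour 5, against 13.8% of 7331 genes of all kinds above it. Among them were Rpl14, Rplp0, Rpsa, Rps19, Rps27l, Rps4x, Rpl7 and Rpl35. In Rpsa that tumour was at 15.00 and the other Hif1a+/- tumours between 15.24 and 15.27, and in Rplp0 it was at 14.27 and the others between 14.64 and 14.85. In Hif1a+/+ tumour 3, 8 genes (18.6%) were lowest, against 7.24% of all genes, among them Rpl11, Rps14, Rps10 and Rpl22. The mean level of the 36 genes above 13 was 14.59 in Hif1a+/+ tumour 3 and 14.60 in Hif1a+/- tumour 5, and highest, 14.77, in Hif1a+/- tumour 4. Hif1a+/- tumour 5 also held the highest level of 13.4% of all genes but of none of the 43.

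**Figure D5:**
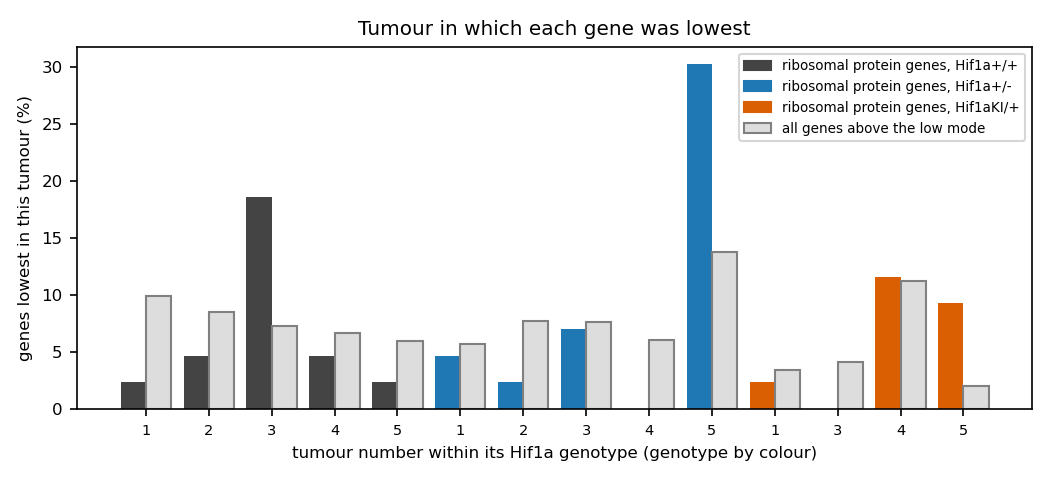
Percentage of genes that had their lowest level of the 14 in a given tumour, for the 43 ribosomal protein genes above the low mode (coloured by genotype) and for all 7331 genes above it (grey). Hif1a+/- tumour 5 holds the lowest level of 30.2% of the ribosomal protein genes and 13.8% of all genes, and Hif1a+/+ tumour 3 of 18.6% and 7.24%.

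Where a gene had several single-gene probe sets, they gave similar but not equal differences. For 19 genes 45 further probe sets lay above the low mode. In 32 of these 45 the sign of the Hif1a+/- difference from Hif1a+/+ was that of the probe set used, and in 33 that of the Hif1aKI/+ difference. The correlation with the probe set used over the 14 tumours ranged from -0.146 to 0.970, with a median of 0.738.

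Other genes of the translation machinery were taken from lists rather than by their changes. Of 20 genes for elongation factors and other mRNAs with a terminal pyrimidine tract, 16 were measured, and 3 were higher at an unadjusted limma p under 0.05 in Hif1a+/- against Hif1a+/+, beside 4.3% of all genes. These were Eif3h, an initiation factor subunit (0.21, SE 0.05), Hnrnpa1 (0.21, SE 0.08) and Fau, which encodes Rps30 fused to a ubiquitin-like protein (0.17, SE 0.07), and 0 were lower, beside 3.64% of all genes. In Hif1aKI/+ tumours Eif3h was the 1 such gene (0.17, SE 0.06; 2.72% of all genes were higher). Against Hif1aKI/+ tumours, the Hif1a+/- tumours had Naca higher (0.17, SE 0.08; 1.41% of all genes). Of 31 ribosome assembly genes 29 were measured, among them Myc, a transcription factor that drives such genes and is not itself an assembly factor. In Hif1a+/- against Hif1a+/+ tumours 24 had a lower and 5 a higher mean, beside 46.2% of all genes with a higher one, and the median difference was -0.33, against -0.004 over all genes. At an unadjusted p under 0.05, 5 were lower (3.64% of all genes were) and 0 higher. Among the 5 were Rrn3, an initiation factor of RNA polymerase I (-0.62, SE 0.20), its subunit gene Polr1b (-1.20, SE 0.41, at means of 4.44 and 5.64, near the low mode) and Ddx21, a nucleolar helicase (-0.24, SE 0.09). In Hif1aKI/+ against Hif1a+/+ tumours 20 of 29 had a lower and 9 a higher mean, beside 47.7% of all genes with a higher one. The median was -0.09, against -0.002 over all genes. Ddx21 was the 1 gene called (-0.31, SE 0.09), beside 1.63% of all genes called lower. In Hif1a+/- against Hif1aKI/+ tumours 23 of 29 had a lower and 6 a higher mean, beside 46.9% of all genes with a higher one. The median was -0.16, against -0.001 over all genes. Rrn3 was the 1 gene called (-0.59, SE 0.21), beside 1.65% of all genes called lower.

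The mitochondrial ribosome, built from a separate set of nuclear genes, was represented by 74 genes. In Hif1a+/- against Hif1a+/+ tumours 51 had a higher mean (median difference 0.13), beside 46.2% of all genes. At an unadjusted limma p under 0.05, 8 were higher and 0 lower, beside 4.3% and 3.64% of all genes. Mrpl45, which anchors the ribosome to the inner membrane, was higher by 0.80 (SE 0.23), Mrpl58 by 0.67 (SE 0.20) and Mrpl55 by 0.63 (SE 0.22). In Hif1aKI/+ tumours 41 had a higher mean (median 0.03), beside 47.7% of all genes. There 1 gene was called in each direction, beside 2.72% of all genes called higher and 1.63% called lower. In Hif1a+/- against Hif1aKI/+ tumours 54 of 74 had a higher mean (median 0.13), beside 46.9% of all genes. Mrpl58 was the 1 gene called, higher by 0.60 (SE 0.21), beside 1.41% of all genes called higher. No gene of these 3 lists passed the limma test adjusted over all genes in any comparison. The 3 lists were read from the values as deposited only, and whether their counts and medians depend on the scaling was not tested.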

How the data were processed

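Total RNA of 14 thymic lymphomas was measured on 1 array each; the labels number them as biological replicates of 3 genotypes. The deposited values are log2 probe set levels made by the authors, and GCRMA and Partek are named without versions in the submitters' processing notes. GCRMA subtracts a background estimated from probe sequence, normalises arrays and summarises probes, and values at background pile up in a low mode. No genome build for the probe sets is given in the sources used here. Saturation was not checked, since unprocessed scans were not used here. Of 18264 probe sets, the platform annotation named 1 gene for 16602, several for 603 and none for 1059; probe sets with 1 gene were kept and each gene was read at its probe set of highest mean, with no filter on level. Differences, SEs, intervals and p-values came from limma 3.58.1 in R 4.3.3 (lmFit with a mean per genotype over all 14 arrays, eBayes, two-sided, Benjamini-Hochberg adjustment over 10254 genes, threshold 0.05). Rpl39l was also compared by two-sided exact permutation tests. Paralogue correlations used 100000 permutations. The limma step was tested on simulated data. Motifs were counted in RefSeq windows.

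The named genes are Rpl39l and other paralogue pairs, the Mdm2-binding, marrow failure, stalk, Rps6 and Rpsa genes, up to 6 genes of smallest unadjusted p per comparison and direction, the 6 of largest and of smallest SD, those below the low mode, the 5 genes most like Rpl39l, and up to 3 genes of each other list. Members, lists and tests were chosen with earlier results of these data known, and the muscle list, the neighbours Usp7 and Emp2, Frmd4b's description by tumour and the tumours named were chosen after the values were seen. Alternatives covered scaling, a filter on level, other probe sets per gene, moderation, fits of 2 genotypes, a replicate block and leaving out each tumour.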

Additional observations from a re-analysis of the deposited data

Results flagged for a closer look

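In each group of 4 or 5 tumours the highest and lowest tumour were compared with the others by Dixon's gap rule, for 90 groups of named genes. A gap large against the group's range was found in 12 groups, and 6 of the 12 lay above the low mode. The rule would flag 4.5 groups if all were independent and normally distributed. Some of these genes were named for their spread or background level in these data, so 12 beside 4.5 is no test of an excess.

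Above the low mode, Hif1a+/- tumour 5 stood apart 3 times: at 7.92 for Rpl3l (others 2.11 to 2.14), at 13.91 for Rps19 (others 14.28 to 14.38) and at 15.00 for Rpsa (others 15.24 to 15.27). Hif1aKI/+ tumour 5 was low for Rpl19, at 14.42 (others 14.74 to 14.77). Hif1aKI/+ tumour 4 was low for Rplp0, at 14.41 (others 14.65 to 14.69), and Hif1aKI/+ tumour 1 was high for Rpl7a, at 14.81 (others 14.69 to 14.71).

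The other 6 lay at background, where the ranges are small. Rpl39l was 2.32 in Hif1a+/- tumour 2 and 2.10 in Hif1aKI/+ tumour 1. Rps27 was 2.67 in Hif1a+/+ tumour 5 and 2.67 in Hif1a+/- tumour 4. Rpl3l was 2.10 in Hif1aKI/+ tumour 1, and Rpl37 was 2.13 in Hif1a+/- tumour 5.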

How the results depend on the processing

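For Hif1a+/- against Hif1a+/+, the 2 genes that passed after adjustment over all genes became 0 with the arrays centred on their medians, quantile normalisation, only genes above the low mode, the probe set of largest interquartile range, a fit of the 2 genotypes alone or the replicate block, and 1 with trend and robust moderation; the cause was not tested. The 6 ribosomal protein genes at an unadjusted limma p under 0.05 in that comparison became 3 with centring and 3 with the filter on level, the 3 of Hif1aKI/+ against Hif1a+/+ became 1 and 1, and the 1 of Hif1a+/- against Hif1aKI/+ became 0 with the filter and 2 in the fit of the 2 genotypes. Rpl39l is the 1 lower gene in each of the first 4 of these counts. It passed the filter only through its Hif1a+/+ tumours (mean 4.43 against 4.41), so the filter says nothing on its call. The share of all genes at an unadjusted p was not taken in these alternatives or in the fits below. Rpl7 and Rpl7l1 had r = 0.539 (permutation p = 0.0465, 14 tumours) at the probe sets of largest interquartile range.

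Leaving out each tumour gave 0 to 1 genes called for Hif1a+/- and 0 to 2 for Hif1aKI/+ against Hif1a+/+, 0 to 1 for Hif1a+/- against Hif1aKI/+ and 0 to 1 in the F test. Ribosomal protein counts ran from 4 to 9, 1 to 4 and 1 to 2, their median differences from 0.01 to 0.05, 0.01 to 0.05 and -0.02 to 0.02. Rpl39l ran from -7.81 to -5.24 (exact p 0.00794 to 0.0159), -7.86 to -5.28 (0.0159 to 0.0536) and 0.004 to 0.05. The r of Rpl22 and Rpl22l1 ran from -0.267 to 0.155, turning sign without Hif1a+/- tumour 1 (0.0016) or Hif1a+/+ tumour 3 (0.155), and that of Rpl7 and Rpl7l1 from 0.238 to 0.476.

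Tumours that share a number across genotypes were no more alike than others. Over 13 pairs the mean correlation of residuals was -0.006 (-0.109 to 0.141), against 0.002 for other pairs. No pairing by number was seen, and the labels do not say whether the numbers pair the tumours. With the replicate block the ribosomal protein counts were 4, 2 and 1, and the Rpl39l differences -6.38, -7.12 and 0.74. Of 1723 alternatives for 79 other named values 28 moved by more than 1 SD, mostly at other probe sets of Rps20, Rpl35, Rpl22 and Rpl13a, and 6 reached an unadjusted p under 0.05: Rpl22 in Hif1aKI/+ against Hif1a+/+ at other probe sets (0.40 and 0.71), Rpsa (0.12) and Rpl12 (0.79) in Hif1a+/- against Hif1a+/+ without Hif1a+/- tumour 5, and Rps25 in the fit of Hif1a+/- and Hif1aKI/+ alone (-0.59) and in Hif1aKI/+ against Hif1a+/+ without Hif1a+/+ tumour 5 (0.96). Rpl39l was not rerun with trend and robust moderation or with 2 genotypes, which leave the exact test as it is.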
